A study of Homo sapiens with 6 samples.

Results

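The genes considered here encode the proteins that bind the RNA mark m6A, called readers, and the enzymes that remove it, called erasers. They were chosen by symbol as the YTH genes YTHDF1, YTHDF2, YTHDF3, YTHDC1 and YTHDC2, the IGF2BP genes IGF2BP1, IGF2BP2 and IGF2BP3, and the demethylase genes FTO and ALKBH5. All 10 were found among the 58735 genes of the expression table. The samples were cells of PANC-1, a long-established line from a human ductal adenocarcinoma of the pancreas, in 2 groups of 3 biological replicates. One group received control siRNA (si-NC) and the other siRNA against METTL16 (si-METTL16), a methyltransferase that deposits m6A on U6 snRNA and on MAT2A mRNA. A further label calls the si-NC samples WT. The methods, like the labels, name siRNA for the sequenced cells, and call these cells stably transfected. For silencing in general the methods describe shRNA with puromycin selection.

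m6A is placed on mRNA by writer enzymes and acts through the proteins that recognise it. The cytoplasmic YTHDF proteins bind the methylated base directly and are best known for shortening the life of the mRNA and for effects on its translation, while nuclear YTHDC1 acts on splicing and export and YTHDC2 is an RNA helicase with its main known role in the germ line. The IGF2BP proteins bind many mRNAs, m6A-bearing ones among them, and are known for protecting them from decay. IGF2BP1 and IGF2BP3 are oncofetal proteins that many adult tissues lack and many carcinomas express. FTO and ALKBH5 belong to the AlkB family of dioxygenases and take the methyl group off.

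Counts summed to between 15725298 and 18054436 per sample, and the members had between 343 and 3869 counts in each, so none of their values was limited by a count near 0. METTL16 itself had 91.5, 96.7 and 100.6 CPM (counts relative to the library total, after TMM scaling) in si-NC and 34.8, 33.9 and 34.9 CPM in si-METTL16. Its log2 fold change was -1.48. Of the epithelial and ductal markers, KRT8 and KRT18 were at between 961 and 2498 CPM in every sample. SOX9 was at between 166.9 and 203.4 CPM and KRT19 at between 54.0 and 213.2 CPM. KRT7, EPCAM and CDH1 were at between 3.23 and 30.5 CPM, and CA2 was below the filter. The 5 acinar markers together stayed at or below 0.179 CPM, and the 4 endocrine markers at or below 0.318 CPM, both sums without TMM scaling. Of 7 tested epithelial and ductal markers 4 were lower in si-METTL16 by the test described below, beside 17.5% of all tested genes. They were KRT19 at a log2 fold change of -1.40, CDH1 at -1.09, KRT7 at -0.84 and SOX9 at -0.25. EPCAM at 0.44, KRT18 at 0.20 and KRT8 at -0.23 did not pass. Also without TMM scaling, the 8 immune, endothelial and stromal markers summed to between 338.9 and 390.9 CPM in si-NC. In si-METTL16 their sum was between 813.1 and 859.2 CPM. Almost all of the sum in both groups was the collagen gene COL1A1. The 3 markers that passed the filter were all higher in si-METTL16 by the same test, beside 18.4% of all tested genes. COL1A1 had a log2 fold change of 1.27, COL3A1 of 0.69 and CD68 of 0.67. CD3E had 0 counts, PECAM1 4, VWF 3, and PTPRC and PDGFRB 18 each over all samples. The part of these marker differences in the values below was not tested.

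The study lists 3 siRNAs against METTL16 and 1 control, and the sources used here do not say which was sequenced. The 3 si-METTL16 samples carry the same numbers as the 3 siRNAs in their titles. The methods state biological triplicates, but the labels leave it open whether each sample received its own siRNA. Their target sequences are shown because an siRNA can lower other transcripts through its seed, bases 2 to 8 of the guide strand. The capitals mark the target bases that pair with the seed.
siRNA METTL16-1: ccttgagactcAACTATAt
siRNA METTL16-2: ccgcctagttcTGTTAATa
siRNA METTL16-3: ccaccaagtaaGCGAAGAa
siRNA NC: ttctccgaacgTGTCACGt
In METTL16, on the minus strand of GRCh38, the first 3 targets lay in the coding sequence of its MANE Select transcript, the representative transcript that RefSeq and Ensembl chose for the gene, in exon 3 at chr17:2477757-2477775, exon 6 at chr17:2464302-2464320 and exon 9 at chr17:2420883-2420901. Searched in the 3′ UTR of each member's MANE Select transcript, the seed match of METTL16-1 occurred at 2 places in YTHDC1, that of METTL16-2 at 1 place each in YTHDC1 and FTO, and that of METTL16-3 at 1 place in FTO. The control seed match occurred at 1 place in FTO. Among 12379 tested transcripts these seed matches were held by 11.4%, 20.4%, 1.49% and 3.09%, respectively. None of the 4 members whose level changed, described next, held any of the 4 seed matches in this UTR, which says only that these letters are not in that window. No member matched a whole siRNA target with fewer than 5 mismatches.

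Of the 10 genes, 4 differed between the groups. YTHDF1, IGF2BP1 and IGF2BP2 were higher in si-METTL16 and IGF2BP3 was lower, at a threshold of 0.05 for the p of edgeR's quasi-likelihood test, adjusted by Benjamini-Hochberg over the 15089 genes tested. All 10 genes passed the filter on low counts, and all lay above the median level of tested genes. Over all tested genes 35.9% passed the threshold, 18.4% higher and 17.5% lower in si-METTL16, so 4 of 10 was near the background. The groups did not overlap for 6 of the 10 genes, against 50.9% of all tested genes. The median log2 fold change of the members was 0.19, beside -0.0045 for all tested genes, and 7 of the 10 estimates were positive. The changes were small. The largest was 0.49 in absolute size, which 64.4% of all genes past the threshold exceeded, and the median absolute change was 0.26 for the members and 0.33 for all tested genes. RNA was taken from whole cultures, in which fewer cells expressing a gene and less RNA per cell cannot be told apart.

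**Figure D1:**
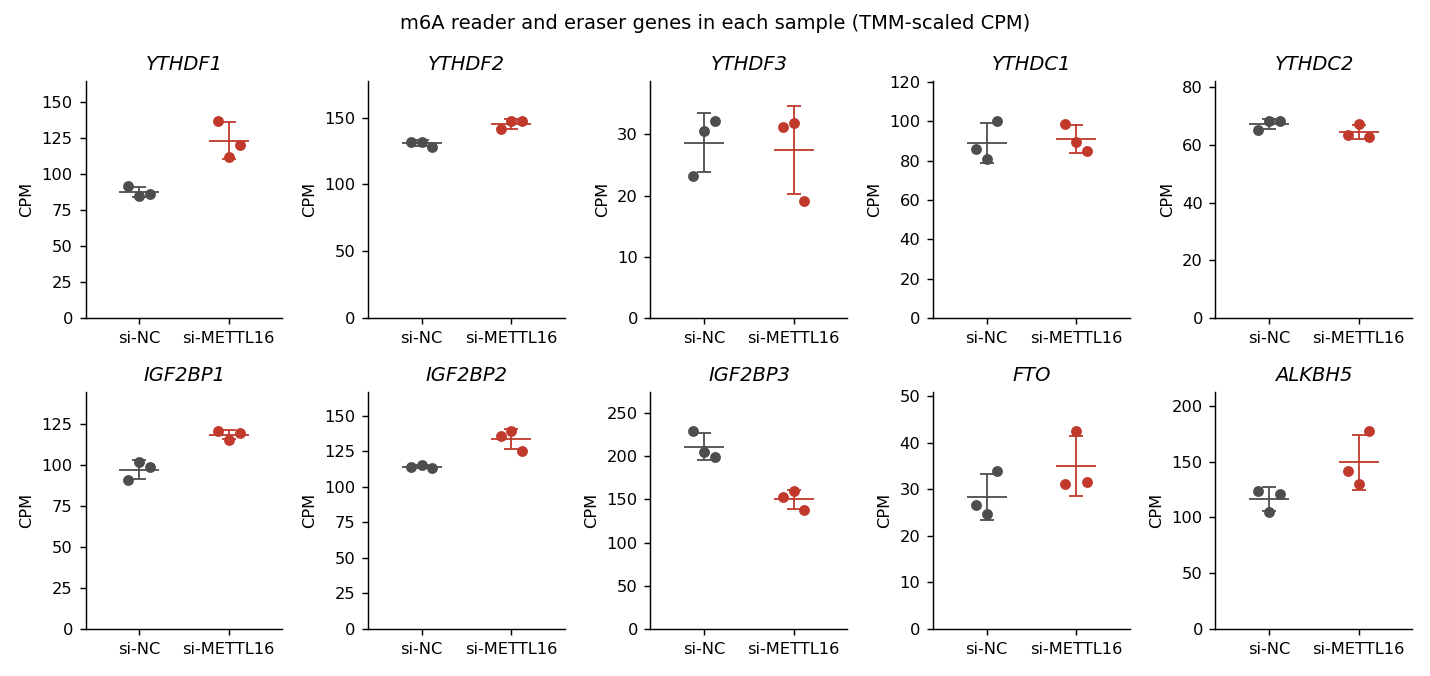
Level of each reader and eraser gene in CPM after TMM scaling (vertical axes, each starting at 0) in the 3 si-NC samples (grey) and the 3 si-METTL16 samples (red); points are samples and bars the mean ± SD. The groups stand apart for YTHDF1, YTHDF2, IGF2BP1, IGF2BP2, IGF2BP3 and ALKBH5, and only IGF2BP3 among these is lower in si-METTL16.

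The plot of CPM by sample shows how close the replicates were for most members, with the widest relative spread in YTHDF3 and FTO, the 2 genes with the fewest counts.

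YTHDF1 (ENSG00000149658, chromosome 20, 63195429 to 63216234 on the minus strand) was the reader with the largest rise. It had 91.5, 84.9 and 86.2 CPM in the si-NC replicates and 136.9, 111.5 and 120.3 CPM in the si-METTL16 replicates. Every si-METTL16 sample was thus above every si-NC sample, with replicate 1 highest in both groups. The mean went from 87.6 ± 3.51 to 122.9 ± 12.9 CPM (SD, n = 3), a log2 fold change of 0.49 with a standard error of 0.09 and an adjusted p of 0.00491.

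YTHDF2 (ENSG00000198492, chromosome 1, 28736621 to 28769775 on the plus strand), the YTHDF protein best known for bringing the CCR4-NOT deadenylase to m6A-bearing mRNA, stayed within a narrow range. Its values were 132.0, 132.1 and 128.3 CPM in si-NC and 141.2, 147.8 and 147.3 CPM in si-METTL16. The groups did not overlap, but the difference missed the threshold (log2 fold change 0.15, 95% interval 0.03 to 0.28, adjusted p 0.0592). YTHDF3 (ENSG00000185728, chromosome 8, 63168553 to 63212786 on the plus strand) is the third cytoplasmic reader and the least counted of the family. It had 23.3, 30.5 and 32.2 CPM in si-NC and 31.1, 31.9 and 19.1 CPM in si-METTL16. One sample of each group was low, si-NC replicate 1 and si-METTL16 replicate 3, and the interval of its log2 fold change, -0.58 to 0.44, was the widest of the 10. Without si-METTL16 replicate 3 its estimate turned from -0.07 to 0.14, and without si-NC replicate 3 to 0.02.

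The nuclear reader YTHDC1 (ENSG00000083896, chromosome 4, 68310387 to 68350089 on the minus strand) had 86.1, 80.8 and 100.3 CPM in si-NC and 98.7, 89.4 and 84.6 CPM in si-METTL16. These ranges overlapped almost fully. Its log2 fold change was 0.03, with an interval of -0.21 to 0.27 and an adjusted p of 0.845, and it turned to -0.04 both without si-NC replicate 2 and without si-METTL16 replicate 1. YTHDC2 (ENSG00000047188, chromosome 5, 113513683 to 113595285 on the plus strand) had 65.0, 68.2 and 68.3 CPM in si-NC and 63.4, 67.3 and 62.8 CPM in si-METTL16. The groups again overlapped. The interval of its log2 fold change, -0.21 to 0.10, was among the narrower ones, and the adjusted p was 0.521.

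The 3 IGF2BP genes did not share a direction. IGF2BP3 (ENSG00000136231, chromosome 7, 23310209 to 23470467 on the minus strand) was the most counted member in si-NC and the most lowered one. It had 229.0, 204.5 and 199.6 CPM in si-NC and 152.7, 159.3 and 138.2 CPM in si-METTL16. The lowest si-NC sample was above the highest si-METTL16 sample. The mean went from 211.0 ± 15.7 to 150.1 ± 10.8 CPM (SD, n = 3), which is 71.1% of si-NC on the fitted scale, with a log2 fold change of -0.49, a standard error of 0.08 and an adjusted p of 0.00337.

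IGF2BP1 (ENSG00000159217, chromosome 17, 48997412 to 49055650 on the plus strand) had 91.0, 102.0 and 98.9 CPM in si-NC and 120.8, 115.5 and 119.6 CPM in si-METTL16. All si-METTL16 samples were higher, and they lay closer together than the si-NC samples. Its log2 fold change was 0.29 with a standard error of 0.07 and an adjusted p of 0.0134. IGF2BP2 (ENSG00000073792, chromosome 3, 185643739 to 185825056 on the minus strand), the member of the family that adult tissues keep, had 114.2, 115.2 and 113.5 CPM in si-NC and 136.0, 139.2 and 125.5 CPM in si-METTL16. Here too the groups stood apart, with si-METTL16 replicate 3 nearest to si-NC. Its log2 fold change was 0.22 with a standard error of 0.06 and an adjusted p of 0.0256. This was the least firm of the 4 calls. Leaving out any of the 3 si-NC samples or si-METTL16 replicate 1 or 2 gave an adjusted p between 0.0681 and 0.0879, leaving out si-METTL16 replicate 3 gave 0.0234, and testing without the filter on low counts gave 0.0594.

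Among the erasers, ALKBH5 (ENSG00000091542, chromosome 17, 18183078 to 18209954 on the plus strand) had 123.4, 104.4 and 121.4 CPM in si-NC and 141.6, 129.5 and 177.2 CPM in si-METTL16. The groups did not overlap, and si-METTL16 replicate 3 was far above the other samples. The log2 fold change of 0.36 had a standard error of 0.13 and an adjusted p of 0.0621, which missed the threshold. Without that replicate the log2 fold change was 0.22 with an adjusted p of 0.141. In edgeR without si-METTL16 replicate 2 it was 0.45 and passed at 0.0392, and the DESeq2 Wald test on all samples gave 0.0347. FTO (ENSG00000140718, chromosome 16, 53701692 to 54158512 on the plus strand) had 26.6, 24.6 and 34.0 CPM in si-NC and 31.2, 42.5 and 31.5 CPM in si-METTL16. The highest si-NC sample was above 2 of the 3 si-METTL16 samples. Its log2 fold change was 0.30 with an interval of -0.09 to 0.70 and an adjusted p of 0.203. It was 0.14 without si-METTL16 replicate 2, 0.20 without si-NC replicate 2 and 0.45 without si-NC replicate 3.

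**Figure D2:**
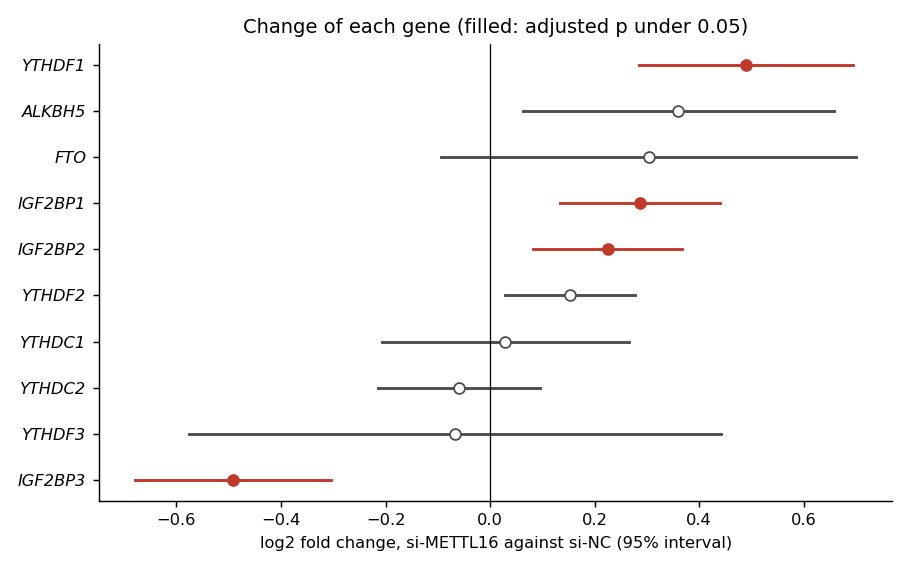
Log2 fold change of each gene, si-METTL16 against si-NC (horizontal axis), with its 95% interval from edgeR; filled red points passed an adjusted p of 0.05 and open points did not. YTHDF1 at 0.49 and IGF2BP3 at -0.49 stand at the ends, and the interval of YTHDF3 is the widest, from -0.58 to 0.44.

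The plot of log2 fold changes sets the calls beside the intervals. YTHDF2 and ALKBH5 have intervals that leave out 0 but miss the threshold after adjustment, while those of FTO, YTHDC1, YTHDC2 and YTHDF3 include 0. YTHDF1, IGF2BP1 and IGF2BP3 passed in all 14 alternative fits and IGF2BP2 in 8 of 14.

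The opposite directions within the IGF2BP family were also expressed as ratios of the deposited FPKM, the counts scaled to gene length and depth, inside each sample. Such ratios do not depend on the scaling between samples. The IGF2BP1 to IGF2BP3 ratio was 0.530, 0.665 and 0.660 in si-NC and 1.06, 0.966 and 1.15 in si-METTL16. The IGF2BP2 to IGF2BP3 ratio was 0.876, 0.989 and 0.998 in si-NC and 1.56, 1.53 and 1.59 in si-METTL16. Neither ratio overlapped between the groups, and their log2 values differed by 0.78 and 0.71. In both pairs the FPKM of each gene already stood apart between the groups, in opposite directions. The separation of these ratios was thus fixed in advance and restates the calls above. The IGF2BP1 to IGF2BP2 ratio overlapped, at 0.646 ± 0.036 and 0.676 ± 0.047 (SD, n = 3). Each difference of the first 2 ratios had a two-sided exact permutation p of 0.1, the smallest that 3 against 3 samples allow, and 0.267 after adjustment over the 8 ratios compared. That p follows from the separation and adds no support of its own.

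Among the YTHDF genes the YTHDF1 to YTHDF2 ratio was 1.42, 1.31 and 1.38 in si-NC and 1.98, 1.54 and 1.67 in si-METTL16. The groups did not overlap, with a log2 difference of 0.33 and the same exact permutation p of 0.1, or 0.267 adjusted. The other 5 ratios overlapped between the groups. The FTO to ALKBH5 ratio differed by -0.05 on the log2 scale with an exact permutation p of 0.9.

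**Figure D3:**
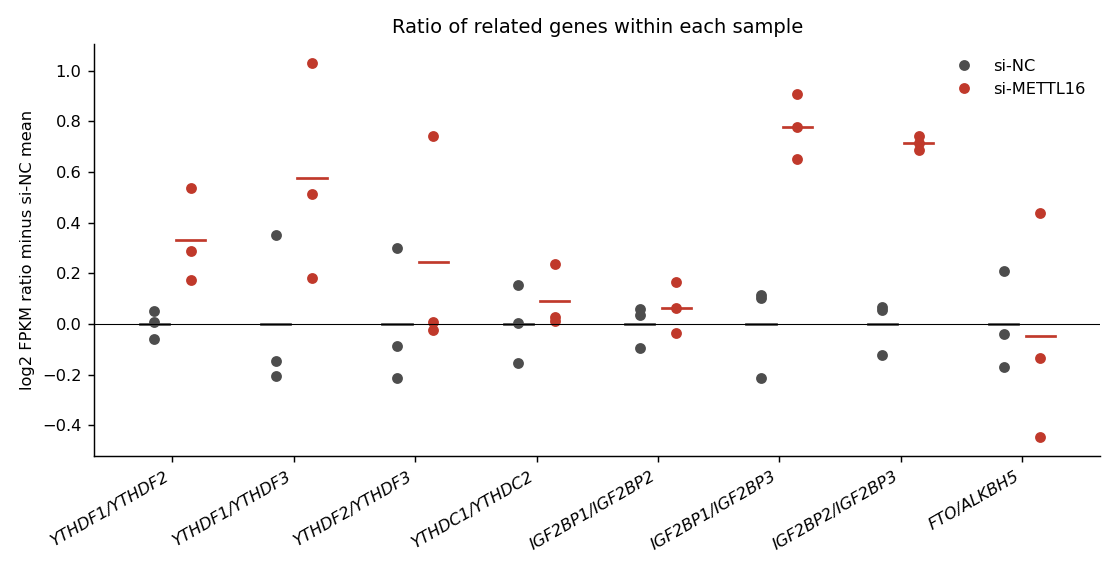
Log2 ratio of the FPKM of 2 related genes in each sample, minus the si-NC mean of that ratio (vertical axis), in si-NC (grey) and si-METTL16 (red); points are samples and short lines group means. The 2 ratios with IGF2BP3 as the denominator lie 0.78 and 0.71 above si-NC with no overlap, and the FTO to ALKBH5 ratio scatters on both sides of 0.

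The plot of ratios shows the 3 si-METTL16 samples close together for IGF2BP2 to IGF2BP3, and widely spread for every ratio that involves YTHDF3 or FTO.

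As shares of the summed IGF2BP FPKM, IGF2BP3 held 39.0% ± 2.27 in si-NC and 27.6% ± 0.94 in si-METTL16, IGF2BP2 held 37.1% ± 0.60 and 43.2% ± 0.65, and IGF2BP1 held 24.0% ± 1.69 and 29.2% ± 1.59 (SD, n = 3). The total of the 3 genes moved little, from 38.6 ± 0.69 to 38.1 ± 1.40 FPKM. The total depends on the gene length used. Per kilobase of the MANE Select transcripts, a choice made after the data were seen, the IGF2BP total was 91.0, 86.8 and 85.0 in si-NC and 80.1, 82.2 and 74.9 in si-METTL16. The groups did not overlap on that scale, with a log2 difference of -0.15. The exact permutation p was 0.1, the smallest possible here, or 0.133 adjusted over the 4 families. The share of IGF2BP3 on that scale was 56.6% ± 2.19 in si-NC and 43.99% ± 0.98 in si-METTL16. The total of the 3 YTHDF genes was 40.3 ± 0.71 FPKM in si-NC and 50.3 ± 2.67 FPKM in si-METTL16, and that of the erasers 26.7 ± 2.42 and 33.7 ± 5.43 FPKM. Both had an exact permutation p of 0.1, or 0.2 adjusted over the 4 families, and no overlap between groups. ALKBH5 held 96.9% of the eraser total in each group, so that total mostly restates ALKBH5, which missed the threshold. The YTHDC total, 13.3 ± 1.06 and 13.1 ± 0.65 FPKM, overlapped.

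Levels can be compared between genes only per length, and the members' order depended on which length was used. In the deposited FPKM of si-NC the order was ALKBH5 at 25.9 ± 2.33, YTHDF1 at 22.3 ± 0.89, YTHDF2 at 16.3 ± 0.26, IGF2BP3 at 15.1 ± 1.11, IGF2BP2 at 14.3 ± 0.10, IGF2BP1 at 9.25 ± 0.54, YTHDC1 at 8.85 ± 1.01, YTHDC2 at 4.41 ± 0.12, YTHDF3 at 1.68 ± 0.28 and FTO at 0.832 ± 0.146 FPKM (SD, n = 3). The neighbours ALKBH5 and YTHDF1, YTHDF2 and IGF2BP3, IGF2BP3 and IGF2BP2, and IGF2BP1 and YTHDC1 overlapped in their samples. The gene length implied by count and FPKM was between 1.2 and 3.37 times that of the MANE Select transcript, for instance 14102 against 4274 bases for IGF2BP3, 8064 against 2744 bases for YTHDF2 and 34324 against 11573 bases for FTO. Divided by the MANE Select length instead, IGF2BP3 at 49.7 ± 3.67 and YTHDF2 at 48.0 ± 0.76 were the highest in si-NC and overlapped each other, followed by ALKBH5 at 37.1 ± 3.33 and YTHDF1 at 27.6 ± 1.09 on that scale. In si-METTL16 the mean of IGF2BP3 was 34.8 ± 2.41 on that scale, below YTHDF2 at 52.5 ± 1.56, ALKBH5 at 46.9 ± 7.96 and YTHDF1 at 38.1 ± 3.85. IGF2BP3 and YTHDF1 overlapped there in their samples. YTHDF3 and FTO were the lowest on both scales.

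**Figure D4:**
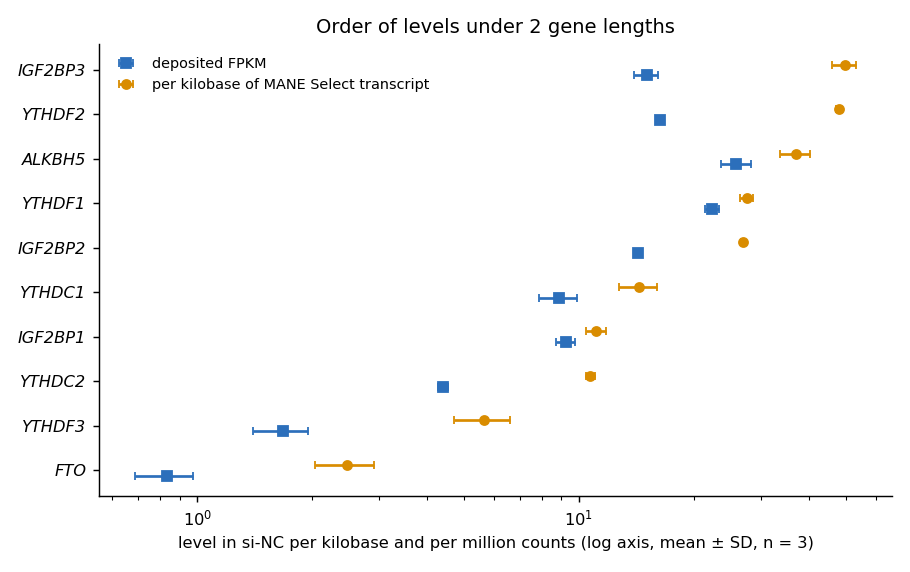
Level of each gene in the 3 si-NC samples (horizontal log axis, counts per kilobase and per depth of the sample; mean ± SD) as deposited FPKM (blue squares) and per kilobase of the MANE Select transcript (orange circles). IGF2BP3 moves from 15.1 to 49.7 and YTHDF2 from 16.3 to 48.0, past ALKBH5, which moves from 25.9 to 37.1.

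The plot of levels under both lengths shows that the gap between the scales differed from gene to gene, being smallest for IGF2BP1 and YTHDF1. Fold changes between the groups are not touched by it, since a gene's length is the same in each sample.

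Neighbouring and duplicated genes could bear on the counts of some members, as the sources used here do not say whether counting used strand. IGF2BP3 shares 1521 exon bases, 35.6% of its MANE Select transcript, with MALSU1 on the opposite strand. MALSU1, a mitochondrial ribosome assembly factor, had 669, 949 and 633 counts in si-NC and 360, 515 and 898 counts in si-METTL16. IGF2BP3 had 3869, 3471 and 3499 counts in si-NC and 2506, 2485 and 2485 counts in si-METTL16. The MALSU1 counts overlapped between the groups (log2 fold change -0.33, adjusted p 0.434 in edgeR). Its estimate had the same sign as that of IGF2BP3, -0.49. The part of MALSU1 reads in the IGF2BP3 counts was not tested. Of the processed copies and antisense genes named after members, YTHDF3-AS1 had 34 and YTHDF2P1 29 counts over the 6 samples, and the others at most 2.

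The 2 members with the largest changes, YTHDF1 and IGF2BP3, were also the 2 with the letters CACGTG, the E-box, in their promoter window. RefSeq windows on GRCh38.p14, from 250 bases before to 50 after the start of transcription, were at hand for 8 members in 10 windows, and IGF2BP1 and YTHDF3 are not among them. The bases before the start are printed 5′ to 3′ on the strand of the gene, both minus, with matches of CACGTG and of the GC box GGGCGG or its reverse complement CCGCCC in capitals. The printed bases of YTHDF1 lie at chr20:63216132-63216381 and those of IGF2BP3 at chr7:23470492-23470741. The deposited span of YTHDF1 reaches to 63216234, so part of its printed bases lies inside that span.
YTHDF1: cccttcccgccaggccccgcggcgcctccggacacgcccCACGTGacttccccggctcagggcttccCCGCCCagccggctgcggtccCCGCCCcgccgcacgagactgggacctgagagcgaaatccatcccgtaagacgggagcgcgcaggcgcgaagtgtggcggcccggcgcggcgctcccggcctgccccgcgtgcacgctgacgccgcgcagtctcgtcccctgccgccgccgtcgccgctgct
IGF2BP3: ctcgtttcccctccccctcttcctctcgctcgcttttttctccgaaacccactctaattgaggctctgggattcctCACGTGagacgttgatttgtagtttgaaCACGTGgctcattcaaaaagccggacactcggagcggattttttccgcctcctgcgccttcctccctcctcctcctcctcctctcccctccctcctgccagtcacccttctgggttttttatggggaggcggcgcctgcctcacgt
The E-box begins 211 bases before the start in YTHDF1 and 174 and 146 bases before it in IGF2BP3. It was found in 2 of the 10 windows of members and in 7.26% of 35116 windows of all genes. The 2 genes that hold it moved in opposite directions, and both were singled out after their values were seen. The letters CCAAT or ATTGG were in 4 of the 10 windows and 34.6% of all windows, the GC box in 7 of the 10 and 45.0% of all, and the E2F letters TTTCCCGC, TTTGGCGC or their reverse complements in none of the 10 and 2.27% of all. A match is a description of the letters and not of a bound site.

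The genes whose pattern over the 6 samples lay nearest to that of IGF2BP3 were ACTR10, a dynactin subunit, FRA10AC1 and GSTK1, a glutathione transferase. Their log2 CPM, each relative to its own si-NC mean, differed from that of IGF2BP3 by a root mean square of 0.039, 0.042 and 0.043. ACTR10 lay at -0.47, -0.47 and -0.64 in the si-METTL16 replicates, beside -0.46, -0.40 and -0.61 for IGF2BP3. Such nearness was selected from all tested genes and is a description.

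The known partners of the YTH proteins were examined next. Among 17 tested partners of YTH proteins, mostly subunits of the CCR4-NOT deadenylase and factors of decay, splicing and export, 7 passed the test, or 4 higher and 3 lower, beside 35.9% of all tested genes. The deadenylase subunit CNOT7 went from 59.4 ± 7.83 to 86.7 ± 12.7 CPM (log2 fold change 0.54, adjusted p 0.019). The decay helicase UPF1 at 0.34, the export receptor NXF1 at 0.32 and the splicing factor SRSF3 at 0.29 were the other 3 higher genes. RIDA, which links YTHDF2 to cleavage by RNase P/MRP, went from 10.6 ± 1.78 to 7.28 ± 0.75 CPM (log2 fold change -0.54, adjusted p 0.04), and CNOT11 at -0.29 and CNOT3 at -0.27 were also lower. CNOT1, the scaffold that YTHDF2 contacts, did not pass (log2 fold change -0.08, adjusted p 0.377), and MEIOC, the germ line partner of YTHDC2, had 4 counts in all. With 1 sample left out, CNOT3 passed only without si-METTL16 replicate 1, RIDA only without si-NC replicate 3, and CNOT7 only without si-NC replicate 3 or si-METTL16 replicate 3, while UPF1, NXF1, SRSF3 and CNOT11 passed in all 6 such fits. The median log2 fold change of the partners was 0.03. Without si-NC replicate 1, 4 of them passed, beside 4412 of 15441 genes tested in that fit.

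Of 8 tested transcripts known to be bound by IGF2BP proteins, 2 passed, both higher, beside 35.9% of all tested genes. MYC, the transcription factor gene whose coding region carries an IGF2BP1 site, had 8.34, 21.0 and 4.62 CPM in si-NC and 82.5, 72.4 and 56.2 CPM in si-METTL16. The groups did not overlap, although the si-NC samples differed widely among themselves (log2 fold change 2.64, standard error 0.49, adjusted p 0.00607). CD44, an adhesion receptor, went from 213.9 ± 25.9 to 342.0 ± 25.1 CPM (log2 fold change 0.68, adjusted p 0.00215). IGF2, which gave the family its name, did not pass. It had 11.95, 19.6 and 16.6 CPM in si-NC and 4.21, 11.8 and 13.0 CPM in si-METTL16, with overlapping groups (adjusted p 0.19). H19, another classic target, had 0 counts. ACTB, whose mRNA IGF2BP1 localises, missed the threshold at 0.0561 and passed in 4 of 14 alternative fits. HMGA2 and LIN28B, both oncofetal transcripts, had log2 fold changes of -0.13 and -0.16 and did not pass either.

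Among 11 other proteins proposed as m6A readers, 3 passed and all were higher, beside 35.9% of all tested genes in either direction. They were LRPPRC, from 648.2 ± 13.1 to 893.3 ± 17.2 CPM (log2 fold change 0.46, adjusted p 0.00043), HNRNPA2B1 at 0.36 and the stabilising protein ELAVL1 at 0.21, which with 1 sample left out passed only without si-METTL16 replicate 1. FMR1 had the lowest estimate at -0.14 (adjusted p 0.211). Of the 7 tested relatives of FTO and ALKBH5 in the AlkB family 2 passed, beside 35.9% of all tested genes. The tRNA methyltransferase ALKBH8 was higher (log2 fold change 0.32, adjusted p 0.0222) and the mitochondrial ALKBH7 lower (log2 fold change -0.70, adjusted p 0.00258). ALKBH8 did not pass without si-NC replicate 1 (0.0646), without si-NC replicate 3 (0.074) or without si-METTL16 replicate 2 (0.0721). Of 13 writer genes 6 passed, METTL16 itself among them, again beside 35.9% of all tested genes. METTL16 and PCIF1 were lower, and RBM15, RBM15B, WTAP and METTL3 were higher, with log2 fold changes between 0.30 and 0.64. METTL3 and PCIF1 each lost their call in 5 of the 6 fits that left out 1 sample, METTL3 in all but that without si-METTL16 replicate 1 and PCIF1 in all but that without si-METTL16 replicate 3. Other than METTL16, 19 of 55 genes of the 5 lists passed, and 12 did without si-NC replicate 1. Over all tested genes 5418 of 15089 passed, and 4412 of 15441 did without that sample.

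**Figure D5:**
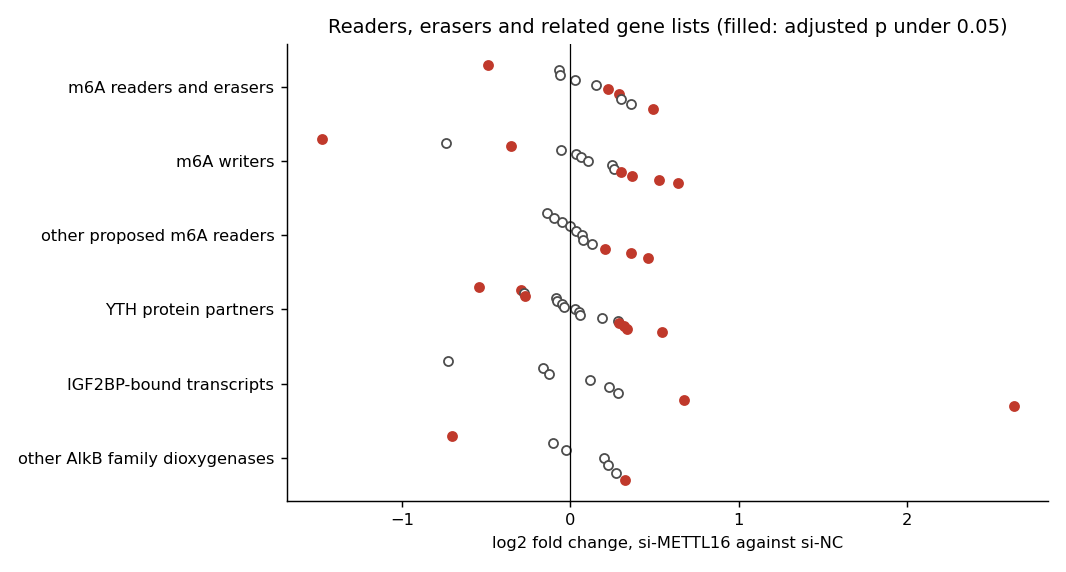
Log2 fold change, si-METTL16 against si-NC (horizontal axis), of the reader and eraser genes and of 5 related gene lists; each point is a gene, spread vertically by rank, filled red where the adjusted p was under 0.05. The members lie between -0.49 and 0.49, and MYC at 2.64 and METTL16 at -1.48 lie farthest from 0.

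The plot of lists shows readers and erasers within the range that most related genes also held, with calls on both sides of 0 in every list except the other proposed readers and the IGF2BP-bound transcripts.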

How the data were processed

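RNA-seq of 3 si-NC and 3 si-METTL16 samples of PANC-1 cells was used. The authors deposited raw counts per gene and FPKM, each count scaled to a length of the gene and to the depth of its sample. The submitters' processing notes name HISAT2 2.0.4, StringTie 1.3.0 and GRCh38; annotation release and use of strand are not given in the sources used here. Gene spans are those of the deposited table, while positions of siRNA targets rest on GENCODE v44 and those of promoter windows on RefSeq.

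Genes were filtered with filterByExpr (minimum count 10, minimum total count 15), scaled by TMM and tested in R 4.3.3 by the quasi-likelihood functions of edgeR 4.0.16, p-values being adjusted by Benjamini-Hochberg and called at 0.05. The methods name limma, which was run as an alternative (limma 3.58.1), as was DESeq2 1.42.0. The common biological coefficient of variation was 16.5%. Ratios and family totals were compared by exact permutation tests. MANE Select transcripts and overlaps came from GENCODE v44, promoter windows from RefSeq, and siRNA targets from the study's supplement. The fit was tested on simulated counts with known changes.

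The members and lists were chosen with earlier results of these data known. Named were all members, METTL16, genes of each list that passed at an absolute log2 change of 1 or more and otherwise its highest and lowest gene, and the 3 genes nearest to the most changed member; the other list genes were named after their values were seen.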

Additional observations from a re-analysis of the deposited data

How the results depend on the processing

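Over 14 alternative fits the signs of 8 members held, and those of YTHDF3 and YTHDC1 turned when single samples were left out, with log2 fold changes from -0.20 to 0.14 and from -0.04 to 0.12. YTHDF3 was at 0.02 without si-NC replicate 3 and 0.14 without si-METTL16 replicate 3, and YTHDC1 at -0.0427 without si-NC replicate 2 and -0.0375 without si-METTL16 replicate 1. FTO had no value on log2(FPKM + 1) or log2(FPKM + 0.1), since its mean FPKM was under 1. At an adjusted p of 0.01, a stricter threshold by construction, 2 members and 3035 of all genes passed, against 4 and 5418. Leaving out 1 sample gave 3 to 4 members, 12 to 18 of the 55 genes of the related lists other than METTL16 and 4159 to 4526 of all genes, with fewer samples in the fit. The replicate block gave 5 members, ALKBH5 added at 0.0316, and 5013 genes, of which 4731 were among the 5418. It gave 5 of 8 IGF2BP-bound transcripts in place of 2, ACTB and FOXK1 being higher and IGF2 lower, and 3 of 12 writers other than METTL16 in place of 5, without METTL3 and PCIF1. The cause was not tested. Without the filter on low counts the same 2 writers did not pass either. After each gene's group mean was taken off, si-NC and si-METTL16 samples of the same replicate number correlated at 0.0253, 0.0371 and 0.0298. The mean was 0.0307, beside -0.0154 for samples of different number, so the numbers showed little pairing.

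With 1 sample left out, the log2 difference ran from -0.29 to 0.15 for FTO to ALKBH5, from -0.0077 to 0.39 for YTHDF2 to YTHDF3, from -0.0605 to 0.0449 for the YTHDC total and from -0.0391 to 0.0115 for the IGF2BP total. Rescaled to TPM, the YTHDF, YTHDC, IGF2BP and eraser totals differed by 0.3507, 0.0129, 0.0138 and 0.3616, against 0.3184, -0.0194, -0.0185 and 0.3292. TPM multiplies all genes of a sample by the same factor, so every log2 difference moves by the same amount. With the replicate block, exact permutation p-values of ratios cannot fall below 0.25. Over the 14 alternatives the adjusted p ran from 0.0532 to 0.182 for YTHDF2 and from 0.0316 to 0.17 for ALKBH5.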
